A study of Homo sapiens with 12 samples.

Results

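The genes described here encode chromatin remodellers and histone modifiers: the CHD and SMARC families, the ARID proteins, the KMT2 and SETD methyltransferase families, the KDM demethylases and the histone deacetylases (HDAC). They were chosen by gene symbol, without antisense genes or pseudogenes, and each gene is read from a single probe set, the brightest on average over the 12 arrays among those listing that gene alone. This gave 73 genes of the 19775 named genes on the array, and 71 of them were among the 12824 genes tested. The study profiled RNA from Jurkat, a line of human T-cell leukaemia cells, transduced with a construct encoding miR-21 or with a matching control vector. The 6 groups, with 2 replicates each, were AGO2 immunoprecipitate (IP) with miR-21, AGO2 IP with the control vector, IgG IP with miR-21, IgG IP with the control vector, Total RNA with miR-21 and Total RNA with the control vector. The cells of all groups grew in medium with 10% serum. The labels give neither the promoter of the construct nor whether the cells were a clone or a pool, and nothing says that the replicates came from separate cultures. The p-values therefore measure the spread between these arrays, which may be technical.

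Chromatin remodellers use the energy of ATP to slide, eject or exchange nucleosomes, and histone modifiers write or erase methyl and acetyl groups on histone tails. In T cells and T-cell leukaemia these proteins are known for setting which genes of the lineage stay accessible, and several of them are recurrently mutated in leukaemias. AGO2 is the Argonaute protein that carries a miRNA to partly complementary sites in messenger RNAs, so an AGO2 IP recovers messages bound by the miRNA machinery together with whatever the beads retain, and the IgG IP measures that retained background. The miRNA of the construct is shown because its seed, bases 2 to 8 in capitals, is the stretch that pairs with targets. It is the RefSeq sequence at chr17:59841273-59841294 of GRCh38.p14, plus strand.
hsa-miR-21-5p: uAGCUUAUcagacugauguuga
The arrays do not report mature miR-21, and the probe sets for its primary transcript name a second gene, so they were left aside. The level of the construct was therefore not measured here.

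All values are the deposited RMA values, on the log2 scale, and a difference of 1 is a 2-fold change. Where a pair of array values is given for a group, replicate 1 stands before replicate 2. Each array is scaled to the RNA that was labelled, so a lower value in an IP is a smaller share of the recovered RNA. In bulk RNA, fewer cells expressing a gene and less RNA per cell cannot be told apart. Total RNA was labelled from 1 ug and IP RNA from 100 ng, so the labelled amount and the comparison of an IP with Total RNA cannot be told apart. Array means lay between 4.39 and 4.41 in replicate 1 and between 5.26 and 5.27 in replicate 2. In replicate 2 the IPs with AGO2 and with IgG gave nearly the same values for a given construct: over all tested genes their difference had an SD of 0.292 with miR-21 and 0.184 with the control vector, against 0.791 and 0.828 in replicate 1. Across genes the AGO2 and IgG arrays of replicate 2 correlated at r = 0.992 with miR-21 and 0.997 with the control vector, and those of replicate 1 at 0.929 and 0.922. AGO2-bound RNA and the background of the beads therefore cannot be told apart in replicate 2, and whether its arrays hold the fractions their labels give was not tested. "AGO2 IP" below means the arrays so labelled. The ACTB control probe sets (3′ minus 5′ signal, a sign of RNA integrity) gave 1.97 to 4.0 in AGO2 IP, 2.08 to 2.18 in IgG IP and 1.35 to 1.38 in Total RNA of replicate 1, and 2.08 to 2.58, 2.57 to 3.48 and 3.18 to 3.53 in the same fractions of replicate 2. The highest value of replicate 1, 4.0, belonged to the AGO2 IP array with the control vector, and the other 5 arrays of that replicate lay between 1.35 and 2.18. The GAPDH control probe sets gave 1.95 in the same array, against 0.139 to 0.464 in the other 5. Their part in the results was not tested. All 11 measured T cell markers passed the filter on low values, with TRBC1 highest at a mean of 12.5. So did 1 of 4 B cell, 1 of 4 monocyte, 2 of 5 epithelial and 2 of 4 fibroblast markers. The 1 measured red cell marker, HBB, also passed, at a mean of 5.44. Of all 19775 named genes 12824 passed. With the replicate block described below, 4 of these 18 tested markers fell in AGO2 IP against Total RNA (11.3% of all genes tested did). In the other comparisons 0 of the markers changed.

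A gene was tested where its mean over the 12 arrays was at least 4.02, the median of all probe sets that are not controls. CHD5, a CHD remodeller of the nervous system, had a mean of 3.99, and SETD6, a lysine methyltransferase, had 2.84, and neither was tested. The tested members nearest above it were HDAC9 at 4.41, SETD1A at 4.54 and KDM8 at 4.60. The model with a mean for each group and no term for the replicate called 0 members and 0% of all genes in any comparison (p-values adjusted by Benjamini-Hochberg over the 12824 genes, threshold 0.05). Same-numbered arrays deviated together from their group means in all 15 pairs of groups (r across genes 0.468 to 0.873). Calls ("rose", "fell") and standard errors (±) below are therefore from limma with the replicate number as a block. The block leaves the differences themselves as they were and takes the same shift for all fractions. The 2 constructs of a fraction deviated together at r = 0.873 in Total RNA, 0.861 in AGO2 IP and 0.819 in IgG IP. Between Total RNA and an IP, r was 0.468 to 0.613. The model counts both constructs as separate arrays of a fraction, so standard errors and adjusted p-values for an IP against Total RNA may be too small. Without the block, 8 members had an unadjusted p under 0.05 for AGO2 IP against Total RNA (11.3%, against 9.59% of all genes, so close to the background); their smallest adjusted p was 0.366, for SMARCA4.

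The first comparison set AGO2 IP against Total RNA and asked which messages were a larger or smaller share of the RNA recovered with the AGO2 antibody than of the cells' RNA. With the replicate block, 15 of 71 members fell (21.1%, against 11.3% of all genes tested) and 1 rose (1.41%, against 4.71% of all genes). The 15 were SMARCA4, SETD2, CHD4, CHD6, ARID1A, KDM5A, CHD3, SMARCAL1, HDAC4, CHD7, KDM4B, KDM2B, KDM3B, HDAC1 and ARID2, and the one that rose was SMARCA2. The median log2 difference of the members was -0.38, against -0.049 over all genes tested, and 48 of 71 members lay below 0 (67.6%, against 53.5% of all genes). The median was -0.34 within replicate 1 and -0.38 within replicate 2. Members below 0 in both replicates numbered 35 (49.3%, against 32.9% of all genes) and members above 0 in both numbered 14 (19.7%, against 25.3%). In 28 members the AGO2 IP arrays were lower than the Total RNA arrays without overlap within both replicates (39.4%, against 21% of all genes), and in 4 they were higher (5.63%, against 11.4%).

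**Figure D1:**
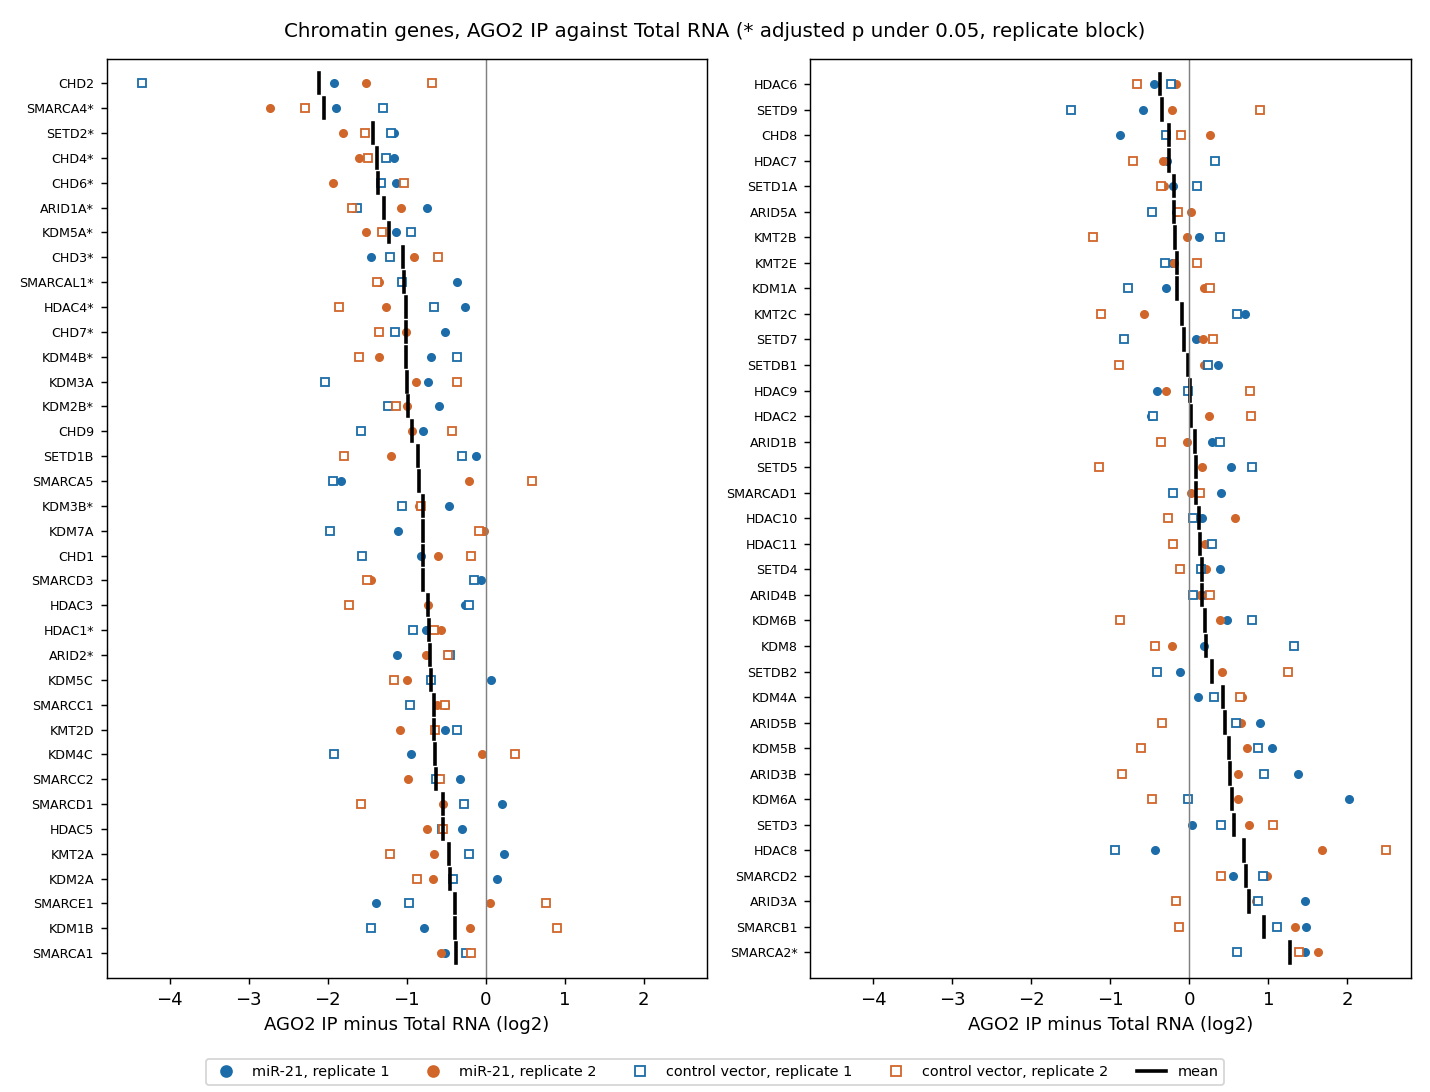
AGO2 IP minus Total RNA (log2, horizontal axis) for the 71 tested chromatin genes, lowest mean first. Each gene has 4 points, 1 per construct (circles miR-21, squares control vector) and replicate (blue 1, orange 2); the black bar is their mean and a star marks an adjusted p under 0.05 with the replicate block. The 15 starred genes of the left panel have all 4 points below 0, and SMARCA2, at the foot of the right panel, has all 4 above 0.

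SMARCA4 (BRG1) and SMARCA2 (BRM) are the alternative ATPase motors of the SWI/SNF complexes, and they lay near opposite ends of the comparison. SMARCA4 read 7.51 and 8.10 with miR-21 and 8.04 and 8.65 with the control vector in AGO2 IP, against 9.40 and 10.83 with miR-21 and 9.34 and 10.93 with the control vector in Total RNA. In IgG IP, SMARCA4 read 9.24 and 8.50 with miR-21 and 9.49 and 8.51 with the control vector. Every AGO2 IP value of SMARCA4 was below every Total RNA value, and its IgG IP values were near those of Total RNA in replicate 1 and near those of AGO2 IP in replicate 2. SMARCA4 fell in AGO2 IP by a log2 difference of -2.05 ± 0.43, adjusted p = 0.0207, which is 4.15-fold lower.

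SMARCA2 read 9.05 and 10.45 with miR-21 and 7.98 and 10.28 with the control vector in AGO2 IP, against 7.58 and 8.82 with miR-21 and 7.38 and 8.89 with the control vector in Total RNA. In IgG IP, SMARCA2 read 7.44 and 9.99 with miR-21 and 7.38 and 9.98 with the control vector. The AGO2 IP arrays of SMARCA2 were higher than the Total RNA arrays within each replicate, but the fractions overlapped across replicates. SMARCA2 rose in AGO2 IP (1.27 ± 0.28, adjusted p = 0.0226), 2.41-fold. In IgG IP, SMARCA2 was level with Total RNA in replicate 1 (-0.071) and above it in replicate 2 (1.12).

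**Figure D2:**
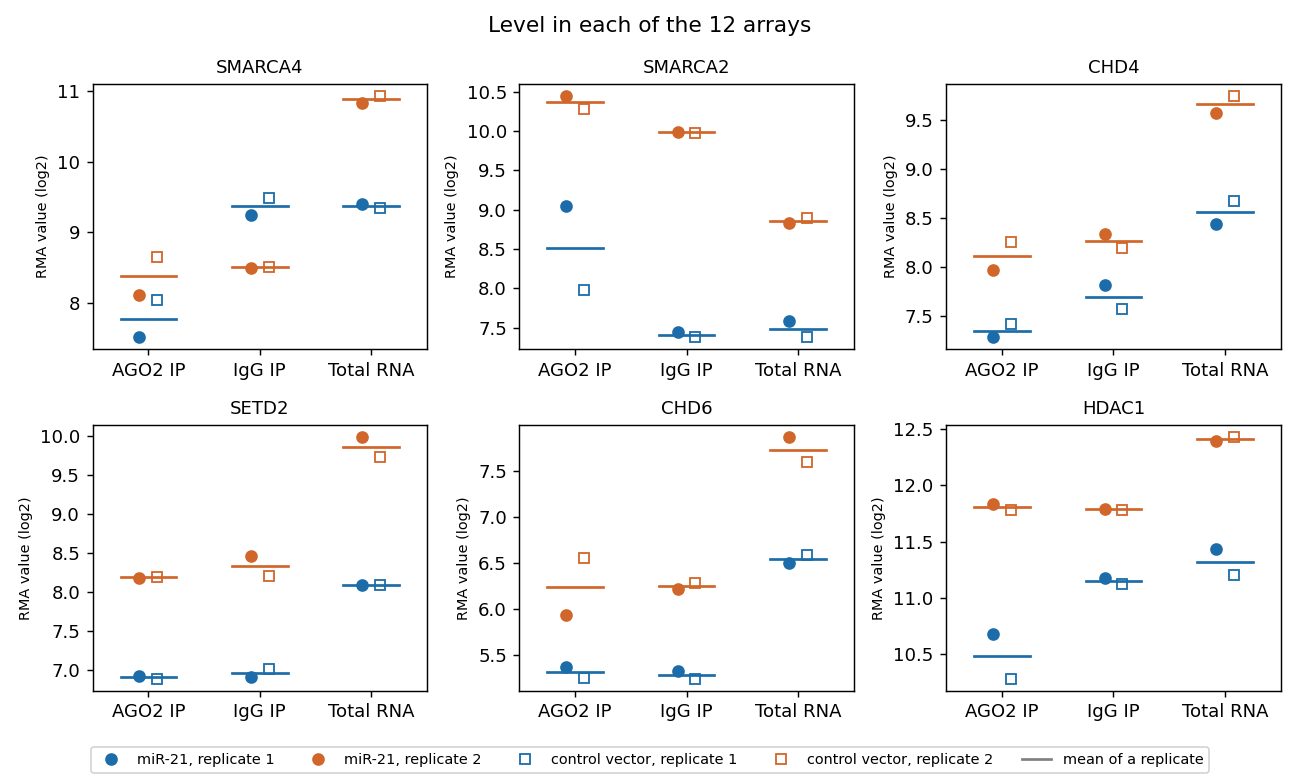
RMA value (log2, vertical axis) of 6 members in the 12 arrays, by fraction; circles are miR-21, squares the control vector, blue replicate 1, orange replicate 2, and each line is the mean of the pair of arrays of a replicate. SMARCA4 in AGO2 IP lies between 7.51 and 8.65, below its Total RNA arrays, and SMARCA2 lies above its Total RNA arrays of the same replicate.

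The 250 bases before the outermost RefSeq start of these paralogues are shown because the genes moved in opposite directions, with GC boxes (GGGCGG on either strand) in capitals. Promoter DNA is not part of the RNA measured. The first is chr19:10960780-10961029 and the second chr9:2015097-2015346, both on the plus strand of GRCh38.p14.
SMARCA4: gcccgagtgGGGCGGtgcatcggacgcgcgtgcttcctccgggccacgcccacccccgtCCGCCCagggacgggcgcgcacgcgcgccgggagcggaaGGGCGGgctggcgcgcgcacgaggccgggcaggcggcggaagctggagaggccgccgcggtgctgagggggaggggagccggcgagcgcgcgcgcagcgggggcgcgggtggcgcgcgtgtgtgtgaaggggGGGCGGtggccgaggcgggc
SMARCA2: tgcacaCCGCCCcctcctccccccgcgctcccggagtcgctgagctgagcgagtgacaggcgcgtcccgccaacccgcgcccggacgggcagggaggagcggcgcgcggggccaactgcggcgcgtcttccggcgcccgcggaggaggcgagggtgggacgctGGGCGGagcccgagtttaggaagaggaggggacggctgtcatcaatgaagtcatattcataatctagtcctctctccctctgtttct
The SMARCA4 stretch holds 4 GC boxes at 82.4% G and C, and the SMARCA2 stretch 2 at 68.8%. A GC box was present in 66.7% of the 63 members with a listed promoter, against 42.2% of all 27305 promoters. Among the members that fell in AGO2 IP, 10 of 12 with a promoter had one (83.3%), against 31 of 50 other tested members (62.0%). A CCAAT box was present in 28.6% of members and 33.0% of all promoters, and TATAAA in 1.59% and 11.2%, each read on both strands and allowed to overlap other motifs. The median G and C content of the windows was 66.8% in members, 71.8% in members that fell, 65.6% in other tested members and 57.6% in all promoters. A GC box is made of G and C alone, so its share cannot be told apart from this content. All promoters include those of genes that were not tested. These matches describe the letters in the window, and a link to the differences in the IPs was not tested.

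The ISWI motors SMARCA1 and SMARCA5, which space nucleosomes, were not called. SMARCA5 (SNF2H) averaged -0.85 ± 0.40, but its 2 differences of replicate 1 were -1.83 and -1.93 and those of replicate 2 were -0.21 and 0.58. SMARCA1 (SNF2L) gave -0.38 ± 0.17. SMARCAL1 is an annealing helicase that works at stalled replication forks. SMARCAL1 read 6.65 and 6.67 with miR-21 and 5.91 and 6.73 with the control vector in AGO2 IP, against 7.01 and 8.03 with miR-21 and 6.97 and 8.10 with the control vector in Total RNA. In IgG IP, SMARCAL1 read 6.29 and 7.18 with miR-21 and 6.71 and 6.58 with the control vector. All AGO2 IP values of SMARCAL1 lay below all of its Total RNA values, and it fell (-1.04 ± 0.26, adjusted p = 0.0299). SMARCAD1, a remodeller active in DNA end resection, stood at 0.088 ± 0.18 and was not called.

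Of the 8 tested CHD remodellers, 4 fell and none rose, with a median of -1.02. Over all genes tested 11.3% fell and 4.71% rose, with a median of -0.049, and groups of this size were not tested as sets. CHD3 and CHD4 are the alternative motors of the NuRD complex, which joins remodelling to histone deacetylation. CHD4 read 7.28 and 7.97 with miR-21 and 7.42 and 8.26 with the control vector in AGO2 IP, against 8.44 and 9.57 with miR-21 and 8.68 and 9.75 with the control vector in Total RNA. In IgG IP, CHD4 read 7.81 and 8.34 with miR-21 and 7.57 and 8.20 with the control vector. CHD4 fell (-1.38 ± 0.19, adjusted p = 0.0094), 2.6-fold lower, with every AGO2 IP value below every Total RNA value. CHD3 read 6.07 and 6.32 with miR-21 and 5.83 and 6.72 with the control vector in AGO2 IP, against 7.52 and 7.23 with miR-21 and 7.04 and 7.32 with the control vector in Total RNA. In IgG IP, CHD3 read 6.63 and 6.72 with miR-21 and 6.20 and 6.61 with the control vector. CHD3 fell as well (-1.04 ± 0.22, adjusted p = 0.0202), again without overlap between the AGO2 IP and Total RNA arrays.

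CHD6, CHD7, CHD8 and CHD9 form a further subfamily. CHD7 binds enhancers and is the gene of CHARGE syndrome. CHD6 read 5.38 and 5.93 with miR-21 and 5.26 and 6.56 with the control vector in AGO2 IP, against 6.50 and 7.87 with miR-21 and 6.58 and 7.59 with the control vector in Total RNA. In IgG IP, CHD6 read 5.33 and 6.22 with miR-21 and 5.25 and 6.28 with the control vector. CHD6 fell (-1.36 ± 0.20, adjusted p = 0.0107), and its IgG IP arrays were as low as its AGO2 IP arrays. CHD7 read 7.41 and 8.14 with miR-21 and 6.53 and 7.84 with the control vector in AGO2 IP, against 7.92 and 9.16 with miR-21 and 7.68 and 9.19 with the control vector in Total RNA. In IgG IP, CHD7 read 6.84 and 8.13 with miR-21 and 6.50 and 7.90 with the control vector. CHD7 fell (-1.01 ± 0.19, adjusted p = 0.0163), and both IPs were below Total RNA within each replicate. CHD9 averaged -0.93 ± 0.32, adjusted p = 0.0767, and CHD8, a regulator of β-catenin targets, -0.26 ± 0.22, adjusted p = 0.463; neither was called.

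CHD1 reads methylated H3K4, and CHD2 is its close paralogue. CHD2 read 6.05 and 8.05 with miR-21 and 3.45 and 8.89 with the control vector in AGO2 IP, against 7.97 and 9.56 with miR-21 and 7.81 and 9.57 with the control vector in Total RNA. In IgG IP, CHD2 read 7.39 and 7.93 with miR-21 and 7.59 and 8.83 with the control vector. The AGO2 IP array with the control vector of replicate 1 stands far below the others, and it is the array with the high ACTB and GAPDH 3′ to 5′ differences given above, whose part here was not tested. CHD2 had the lowest mean difference of all members (-2.12 ± 0.66, adjusted p = 0.0579), yet it was not called with the block. Within replicate 2 alone, CHD2 fell by a log2 difference of -1.10 ± 0.27 (limma within the replicate, adjusted p = 0.0205). Its 3 other probe sets above the filter gave between -0.85 and -0.072. CHD1 gave -0.79 ± 0.24 and was not called.

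Among the ARID subunits of SWI/SNF, 2 of 3 fell (11.3% of all genes tested did). ARID1A and ARID1B are the alternative large subunits of the BAF complex, and ARID2 belongs to the PBAF form. ARID1A read 8.64 and 9.43 with miR-21 and 7.74 and 8.83 with the control vector in AGO2 IP, against 9.39 and 10.50 with miR-21 and 9.37 and 10.53 with the control vector in Total RNA. In IgG IP, ARID1A read 8.86 and 9.25 with miR-21 and 8.57 and 8.83 with the control vector. ARID1A fell (-1.29 ± 0.22, adjusted p = 0.0141), and ARID1B, read from its brightest probe set, stood at 0.074 ± 0.25 and was not called. Of the 5 other ARID1B probe sets above the filter, 3 gave -1.21, -1.08 and -0.73 and 2 gave 0.048 and 0.063, so ARID1B is not shown to differ from ARID1A. ARID2 fell by less (-0.70 ± 0.18, adjusted p = 0.0325), with -0.78 in replicate 1 and -0.62 in replicate 2. None of the 7 core and accessory SWI/SNF subunits was called, and their median was -0.55. The scaffold pair SMARCC1 and SMARCC2 gave -0.65 ± 0.22 and -0.63 ± 0.20, and both were lower in AGO2 IP than in Total RNA within each replicate without overlap. SMARCB1 (SNF5), a subunit lost in rhabdoid tumours, lay on the other side at 0.95 ± 0.28, adjusted p = 0.0514, and its other probe set above the filter gave -0.073.

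The alternative subunits SMARCD1, SMARCD2 and SMARCD3 differed in sign, at -0.55 ± 0.30, 0.72 ± 0.27 and -0.79 ± 0.29. SMARCE1 (BAF57) had -1.18 in replicate 1 and 0.41 in replicate 2, so its sign did not repeat. The 5 tested ARID proteins outside SWI/SNF had a median of 0.45, and none was called. ARID3A (Bright) averaged 0.75 ± 0.34, adjusted p = 0.163, ARID3B 0.52 ± 0.38, ARID5B, a corepressor-linked factor tied to childhood leukaemia risk, 0.45 ± 0.21, ARID4B 0.16 ± 0.20 and ARID5A, an RNA-binding ARID protein, -0.19 ± 0.18. In ARID3A, ARID3B and ARID5B the AGO2 IP array with the control vector of replicate 2 was below Total RNA, at -0.17, -0.85 and -0.34, while the other 3 differences of each gene were above 0.

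SETD2, which places trimethylation on H3K36 behind elongating RNA polymerase II, was the methyltransferase that fell. SETD2 read 6.92 and 8.18 with miR-21 and 6.89 and 8.20 with the control vector in AGO2 IP, against 8.08 and 9.98 with miR-21 and 8.08 and 9.73 with the control vector in Total RNA. In IgG IP, SETD2 read 6.91 and 8.46 with miR-21 and 7.01 and 8.20 with the control vector. In both replicates the IPs of SETD2 lay more than 1 unit below Total RNA. SETD2 fell in AGO2 IP (-1.42 ± 0.19, adjusted p = 0.0092), 2.68-fold lower. The other tested genes named SETD by symbol alone were not called: SETD3, an actin histidine methyltransferase, gave 0.56 ± 0.21, SETD4 0.16 ± 0.19, SETD7, which monomethylates H3K4, -0.068 ± 0.23, and SETD9 -0.35 ± 0.40.

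None of the 6 tested H3K4 methyltransferases of the COMPASS type was called, and their median was -0.33. This turned on the probe set for 2 of them: with the mean of all probe sets per gene and the block, KMT2A (-0.67 ± 0.17, adjusted p = 0.0405) and KMT2C (-0.70 ± 0.17, adjusted p = 0.0344) fell. KMT2A (MLL1), the gene broken in MLL-rearranged leukaemia, gave -0.46 ± 0.27 and its paralogue KMT2B -0.18 ± 0.31. KMT2C and KMT2D, which act at enhancers, gave -0.097 ± 0.35 and -0.65 ± 0.22, and SETD1A and SETD1B, which act at promoters, -0.20 ± 0.21 and -0.85 ± 0.31. The 5 further probe sets of KMT2A above the filter lay between -1.52 and -0.17, and the 3 of KMT2C gave -0.73, -1.68 and -1.58. In the probe set used, KMT2C changed sign between replicates: limma within a replicate called it higher in AGO2 IP than in Total RNA in replicate 1 (0.65 ± 0.18) and lower in replicate 2 (-0.84 ± 0.22). KMT2E and SETD5, SET-domain proteins with little or no methyltransferase activity, stood at -0.16 ± 0.17 and 0.087 ± 0.40, and further probe sets of SETD5 lay between -0.47 and 1.52. The H3K9 methyltransferases SETDB1 and SETDB2 stood at -0.023 ± 0.24 and 0.28 ± 0.34, and neither was called.

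Jumonji-type demethylases remove methyl groups from lysines with iron and oxoglutarate. Of the 14 tested, 4 fell and none rose, with a median of -0.67. Over all genes tested 11.3% fell and 4.71% rose, with a median of -0.049. KDM5A (JARID1A) erases H3K4 trimethylation. KDM5A read 6.37 and 8.15 with miR-21 and 6.54 and 8.38 with the control vector in AGO2 IP, against 7.50 and 9.66 with miR-21 and 7.49 and 9.70 with the control vector in Total RNA. In IgG IP, KDM5A read 6.89 and 8.35 with miR-21 and 6.88 and 8.44 with the control vector. KDM5A fell (-1.23 ± 0.20, adjusted p = 0.0126), with the IPs below Total RNA in each replicate. Its paralogue KDM5B lay at 0.51 ± 0.35 and the X-linked KDM5C at -0.69 ± 0.23; neither was called, and the 3 further probe sets of KDM5B lay between -0.67 and 0.45.

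KDM4A, KDM4B and KDM4C erase H3K9 and H3K36 methylation. KDM4B read 8.03 and 8.44 with miR-21 and 8.13 and 8.41 with the control vector in AGO2 IP, against 8.73 and 9.79 with miR-21 and 8.50 and 10.01 with the control vector in Total RNA. In IgG IP, KDM4B read 8.44 and 8.95 with miR-21 and 8.45 and 8.44 with the control vector. KDM4B fell (-1.0 ± 0.26, adjusted p = 0.0349), and all AGO2 IP values were below all Total RNA values. KDM4A stood at 0.43 ± 0.23, and its other probe set above the filter gave -0.18. KDM4C stood at -0.64 ± 0.35, with -1.43 in replicate 1 and 0.16 in replicate 2. KDM2B recruits a variant Polycomb complex to CpG islands. KDM2B read 8.70 and 9.40 with miR-21 and 8.20 and 9.21 with the control vector in AGO2 IP, against 9.29 and 10.40 with miR-21 and 9.43 and 10.35 with the control vector in Total RNA. In IgG IP, KDM2B read 8.93 and 9.49 with miR-21 and 9.01 and 9.30 with the control vector. KDM2B fell (-0.99 ± 0.20, adjusted p = 0.0188), while its paralogue KDM2A gave -0.45 ± 0.23 and was not called. The further KDM2A probe sets above the filter gave 0.23 and 0.25, so its sign depended on the probe set.

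KDM3B, an H3K9 demethylase, fell (-0.80 ± 0.20, adjusted p = 0.0288), and its paralogue KDM3A averaged -1.0 ± 0.31 without being called (adjusted p = 0.0552), with -1.38 in replicate 1 and -0.63 in replicate 2. The H3K27 demethylases KDM6A (UTX) and KDM6B (JMJD3) stood at 0.54 ± 0.27 and 0.20 ± 0.31. KDM7A gave -0.80 ± 0.33 and KDM8 0.21 ± 0.32. The flavin-dependent demethylases KDM1A (LSD1) and KDM1B stood at -0.16 ± 0.23 and -0.38 ± 0.41, and neither was called.

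Among the deacetylases, HDAC1 and HDAC4 fell. HDAC1 and HDAC2 are the paired catalytic subunits of the NuRD, SIN3 and CoREST complexes, and HDAC1 had -0.72 ± 0.21, adjusted p = 0.0449, with -0.84 in replicate 1 and -0.61 in replicate 2. HDAC2 stood at 0.020 ± 0.25 and HDAC3, the catalytic subunit of the NCoR and SMRT complexes, at -0.73 ± 0.29; neither was called. HDAC8, a deacetylase of cohesin, had opposite signs in the replicates: within replicate 1 limma called it lower in AGO2 IP than in Total RNA (-0.69 ± 0.21), and within replicate 2 higher (2.08 ± 0.25). In IgG IP, HDAC8 was above Total RNA in both, at 0.37 and 2.26.

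The class IIa deacetylases shuttle between nucleus and cytoplasm in response to kinase signals. HDAC4 read 8.94 and 8.90 with miR-21 and 8.43 and 8.21 with the control vector in AGO2 IP, against 9.20 and 10.17 with miR-21 and 9.08 and 10.07 with the control vector in Total RNA. In IgG IP, HDAC4 read 8.49 and 9.09 with miR-21 and 8.33 and 8.30 with the control vector. HDAC4 fell (-1.01 ± 0.26, adjusted p = 0.0323), with all AGO2 IP values below all Total RNA values. HDAC5 stood at -0.54 ± 0.23, HDAC7, the class IIa member known for its role in thymocytes, at -0.25 ± 0.23, and HDAC9 at 0.014 ± 0.24. HDAC6, the tubulin deacetylase, gave -0.37 ± 0.20, HDAC10, a polyamine deacetylase, 0.13 ± 0.24, and HDAC11 0.14 ± 0.18. None of these 6 was called.

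The calls rested on few arrays. With the block, leaving out any one of the Total RNA miR-21, Total RNA control vector or AGO2 IP miR-21 arrays of replicate 2 left 0 members called, with at most 0.421% of all genes falling. Leaving out the replicate 1 array of AGO2 IP with miR-21 left 2 that fell (0.507% of all genes). Leaving out the replicate 1 array of AGO2 IP with the control vector, the one with the high 3′ to 5′ differences, left 10 that fell (6.23% of all genes) and 1 that rose (1.79%). In replicate 2 the AGO2 IP array with the control vector lay close to the IgG IP array with the control vector, and the IgG IP array with miR-21 close to the AGO2 IP array with miR-21. The AGO2 IP control vector and IgG IP miR-21 arrays were picked for this likeness, so the fit without them is no independent check of the calls. Without the AGO2 IP array with the control vector and the IgG IP array with miR-21 of that replicate, which leaves 1 array in each of those groups, 19 members fell (13.3% of all genes) and 5 rose (8.58% of all genes), and 13 of the 16 calls were kept. The 3 lost were ARID2, HDAC4 and KDM4B. Within replicate 1 alone 24 members fell (23.3% of all genes) and 10 rose (13% of all genes), and within replicate 2 alone 25 fell (19.4% of all genes) and 5 rose (15.8% of all genes).

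Other probe sets of the same genes gave a further reading of the same RNA. The 73 members had 238 probe sets listing 1 gene, with a median of 3 per gene, and 12 members had 1. Above the filter, 51 members had 107 further probe sets, of which 81 had the sign of the one used. A further probe set of the other sign occurred in ARID1B, ARID4B, ARID5B, HDAC6, KDM2A, KDM4A, KDM5B, KDM6B and KMT2D. The same held for SETD4, SETD5, SETD7, SETD9, SETDB1, SETDB2, SMARCB1 and SMARCE1. Of the 15 members that fell, HDAC1, KDM2B and SMARCAL1 had no further probe set. The 28 further probe sets of the others were all below 0 in AGO2 IP against Total RNA, against 79 of all 107. These members were picked for low values in the same arrays, so this is no independent support. Those of SMARCA4 lay between -2.24 and -0.015 (6 probe sets) and those of CHD4 at -1.89 and -1.36. For SMARCA2 the 5 others lay between 0.028 and 1.21, so its size depended on the probe set. Probe sets of one gene share their RNA and their arrays and are not replicates. With the mean of all probe sets per gene, 18 of 68 tested members fell with the block (26.5%, against 9.5% of all genes) and 0 rose (3.95% of all genes). Of these, 14 were among the calls above, and CHD1, CHD9, KMT2A and KMT2C were added, while SMARCA2 and KDM4B were no longer called.

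**Figure D3:**
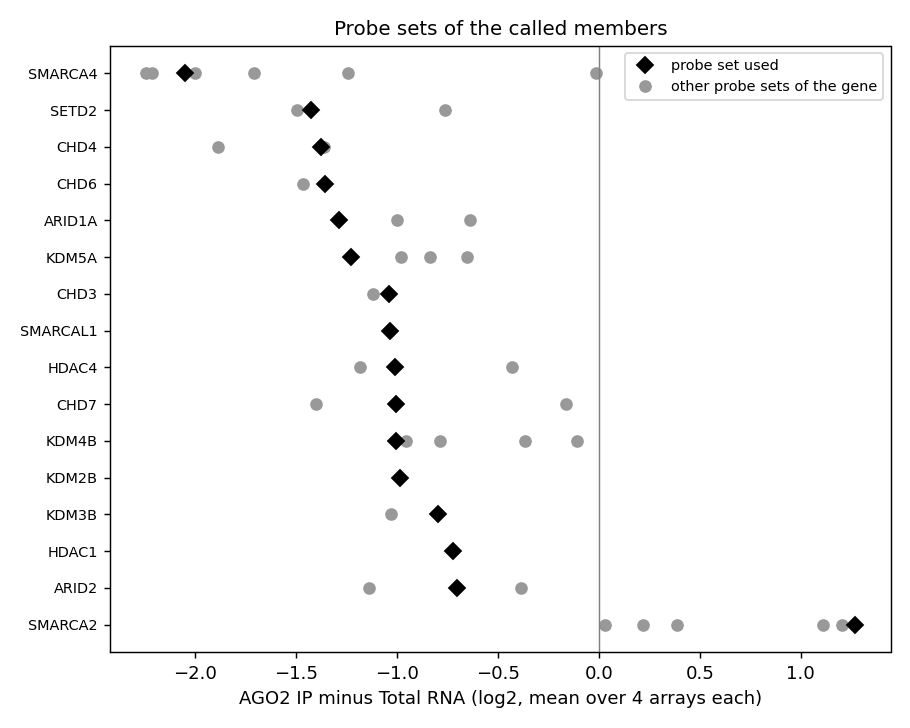
AGO2 IP minus Total RNA (log2, mean over 4 arrays per fraction, horizontal axis) for every probe set above the filter of the 16 called members. Black diamonds are the probe set used and grey circles the others; the grey circles of the members that fell lie below 0, and those of SMARCA2 lie between 0.028 and 1.21.

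IgG IP against Total RNA shows what the beads and the control antibody recovered, and it uses the same Total RNA arrays as the comparison above. With the block, 6 of 71 members fell (8.45%, against 1.62% of all genes) and 0 rose (0.296% of all genes did); without the block 0 were called and 6 had an unadjusted p under 0.05 (8.45%, against 3.41% of all genes). The members that fell were CHD6 (-1.37 ± 0.20, adjusted p = 0.0144), SETD2 (-1.33 ± 0.19, adjusted p = 0.0144), CHD7 (-1.14 ± 0.19, adjusted p = 0.0238), CHD4 (-1.13 ± 0.19, adjusted p = 0.0229), ARID1A (-1.07 ± 0.22, adjusted p = 0.0466) and, at the edge of the threshold, KDM5A (-0.95 ± 0.20, adjusted p = 0.04997). In AGO2 IP the same 6 genes stood at -1.36, -1.42, -1.01, -1.38, -1.29 and -1.23, in that order. The member median was -0.33, against -0.013 over all genes, and 53 of 71 members lay below 0 (74.6%, against 51.3%).

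In 28 members the IgG IP arrays were lower than Total RNA without overlap within both replicates (39.4%, against 16.5% of all genes), and in 4 they were higher (5.63%, against 10% of all genes). SMARCA4 differed by -1.19 ± 0.43 and was not called, with -0.0028 in replicate 1 and -2.38 in replicate 2. Within replicate 1 alone 8 members fell (2.99% of all genes), CHD3, CHD6, CHD7, CHD9, KMT2A, KMT2D, SETD2 and SMARCA5, and 0 rose (0.772% of all genes). Within replicate 2 alone 21 fell (16.6% of all genes) and 6 rose (14.7% of all genes). With the block, leaving out any one of the 4 IgG IP arrays or either Total RNA array of replicate 2 left 0 members called. Leaving out the AGO2 IP control vector and IgG IP miR-21 arrays of replicate 2 together also left 0 called (0.351% of all genes fell and 0.0468% rose).

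AGO2 IP against IgG IP sets the RNA recovered with the AGO2 antibody against the background of the beads, and here 0 members were called with or without the block (0% of all genes). With the block, 5 members had an unadjusted p under 0.05 (7.04%, against 5.17% of all genes), and without it 0 did (0.226% of all genes); the smallest adjusted p of a member was 0.819. The median was -0.070, against -0.077 over all genes. Members with the same sign in both replicates and the largest differences, none past the threshold, were SMARCA4 (-0.86 ± 0.43), HDAC8 (-0.62 ± 0.51) and HDAC5 (-0.47 ± 0.23) below 0, and KDM5B (0.84 ± 0.35), KMT2C (0.77 ± 0.35) and SMARCA2 (0.74 ± 0.28) above 0. KDM5B read 8.55 and 9.17 with miR-21 and 8.15 and 7.68 with the control vector in AGO2 IP, against 6.81 and 8.96 with miR-21 and 6.92 and 7.50 with the control vector in IgG IP. In replicate 1 both AGO2 IP values of KDM5B were over 1 unit above IgG IP, and in replicate 2 the differences were 0.20 and 0.17.

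**Figure D4:**
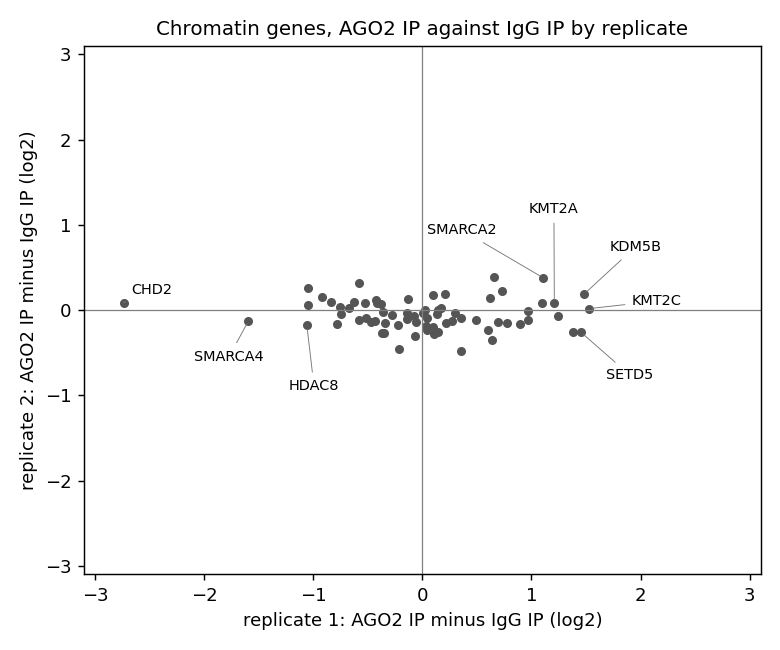
AGO2 IP minus IgG IP (log2) of the 71 tested members in replicate 1 (horizontal axis) and replicate 2 (vertical axis), on the same scale; each point is a gene, the mean of both constructs. Points spread along the horizontal axis, with SMARCA4 at -1.59 and KMT2C at 1.53, and lie close to 0 on the vertical axis.

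The replicates differed in this comparison. Within replicate 1 alone, 14 members rose (19.7%, against 12.5% of all genes) and 9 fell (12.7%, against 11.5%), and within replicate 2 alone 0 did either (0% of all genes). The members that rose in replicate 1 included 4 of the 6 tested COMPASS-type methyltransferases, KMT2C (1.53 ± 0.18), KMT2A (1.21 ± 0.21), KMT2B (0.89 ± 0.17) and KMT2D (0.69 ± 0.19), and 4 of the 5 ARID proteins outside SWI/SNF, ARID3A (1.38 ± 0.21), ARID3B (1.24 ± 0.19), ARID5B (0.73 ± 0.20) and ARID4B (0.62 ± 0.17). SETD5 (1.45 ± 0.17), KDM5B (1.48 ± 0.19), SMARCA2 (1.10 ± 0.27), SMARCB1, CHD9 and KDM6B made up the rest. These values are those of the probe set used. Over both replicates, the 3 further KMT2C probe sets above the filter gave -0.73, -1.68 and -1.58 in AGO2 IP against Total RNA. In IgG IP against Total RNA the same probe sets gave -1.17, -1.79 and -1.35, so the order of the IPs was mixed. It was mixed in the further KMT2A probe sets as well. The 9 that fell, a share close to that of all genes, were CHD2 (-2.74 ± 0.63), SMARCA4 (-1.59 ± 0.20), HDAC8 (-1.06 ± 0.21), SMARCE1, KDM4C, SMARCA5, HDAC5, HDAC2 and HDAC1. No family of members was tested as a set.

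Among the IP arrays, AGO2 IP was higher than IgG IP without overlap within both replicates in ARID4B, SMARCA2 and SMARCAD1 (4.23%, against 1.23% of all genes). It was lower in ARID5A (1.41%, against 3.9%). In replicate 2 the differences with miR-21 and with the control vector were 0.091 and 0.18 in ARID4B and 0.459 and 0.305 in SMARCA2. They were 0.656 and 0.124 in SMARCAD1 and -0.141 and -0.085 in ARID5A.

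The study's own question was which messages move with miR-21. No member was called for miR-21 against the control vector in AGO2 IP, IgG IP or Total RNA, with or without the block, nor in the interaction between construct and IP antibody, AGO2 against IgG (0% of all genes in each). With the block, the members with an unadjusted p under 0.05 numbered 3 in AGO2 IP (4.23%, against 2.75% of all genes), 1 in IgG IP (1.41%, against 0.959%), 0 in Total RNA (0.0234% of all genes) and 0 in the interaction (0.304% of all genes), and without it 0 in each. In AGO2 IP the largest differences with the same sign in both replicates, none past the threshold, were KDM6A (1.44 ± 0.38), ARID3B (1.05 ± 0.54) and ARID5B (0.96 ± 0.30) above 0 and SMARCA4 (-0.54 ± 0.61), SMARCE1 (-0.54 ± 0.45) and ARID2 (-0.41 ± 0.25) below 0.

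KDM6A read 8.14 and 8.38 with miR-21 and 6.41 and 7.24 with the control vector in AGO2 IP. In IgG IP, KDM6A read 6.22 and 8.11 with miR-21 and 6.14 and 7.32 with the control vector, and in Total RNA 6.12 and 7.76 with miR-21 and 6.43 and 7.70 with the control vector. Both AGO2 IP arrays with miR-21 were above both with the control vector. In IgG IP, miR-21 was also the higher construct, slightly in replicate 1 (6.22 against 6.14) and more in replicate 2 (8.11 against 7.32). The Total RNA arrays of the constructs were within 0.31 of each other in each replicate. In replicate 1 the lower AGO2 IP value came from the array with the high ACTB and GAPDH 3′ to 5′ differences. In replicate 2 the lower one came from an array close to its IgG IP counterpart (r = 0.997 across genes). The part of these limits in the KDM6A values was not tested. The adjusted p of KDM6A in AGO2 IP was 1 with the block. ARID5B read 9.85 and 11.18 with miR-21 and 9.04 and 10.07 with the control vector in AGO2 IP, with 8.95 and 10.53 with miR-21 and 8.45 and 10.41 with the control vector in Total RNA. In IgG IP, ARID5B read 8.81 and 10.75 with miR-21 and 8.62 and 10.05 with the control vector. Its miR-21 array was thus above its control vector array in every fraction and replicate, IgG IP and Total RNA included.

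In Total RNA the members lay between -0.43 (SMARCB1) and 0.31 (ARID5B) for miR-21 against the control vector, with a median of 0.0058 against 0.016 over all genes. CHD4 stood at -0.21, SETD1A at -0.18, HDAC9 at 0.29 and SMARCAD1 at 0.24. In IgG IP the largest differences with a repeated sign were ARID3B (1.05 ± 0.54), KMT2B (1.01 ± 0.44) and SETD5 (0.84 ± 0.57) above 0, and SMARCE1 (-0.56 ± 0.45), CHD2 (-0.55 ± 0.93) and HDAC10 (-0.42 ± 0.35) below 0. For the interaction they were CHD2 (1.43 ± 1.31), KDM6A (1.00 ± 0.54) and KDM3A (0.89 ± 0.61), and KDM8 (-0.93 ± 0.63), KMT2D (-0.69 ± 0.44) and HDAC9 (-0.47 ± 0.49). Each SE of a difference between constructs rests on 2 arrays a group.

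Genes that work in the same complexes were listed by function in 11 lists of 171 genes, of which 161 were tested. With the block, 34 of them fell in AGO2 IP against Total RNA (21.1%, against 11.3% of all genes) and 4 rose (2.48%, against 4.71%). The median over all genes was -0.049. These shares and this median are the background of every list below, and no list was tested as a set. Of 22 histone acetyltransferase genes and partners 10 fell, with a median of -0.63, among them the coactivator EP300 (-2.07 ± 0.26), the shared scaffold TRRAP (-1.99 ± 0.32), the EP300 paralogue CREBBP (-1.68 ± 0.28) and the MYST enzyme KAT6B (-1.34 ± 0.21). Of 9 ISWI partners 4 fell (median -0.70), BPTF (-2.12 ± 0.21), RSF1 (-1.51 ± 0.21), BAZ1A (-1.27 ± 0.27) and BAZ1B (-1.18 ± 0.18), which carry the reader domains of these complexes. Of 12 COMPASS partners 5 fell (median -0.67), with HCFC1 (-1.27 ± 0.20), NCOA6 (-1.04 ± 0.22), MEN1 (-1.0 ± 0.27) and CXXC1 (-0.88 ± 0.21) the largest.

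Of 20 INO80, SRCAP and TIP60 complex genes 6 fell and 1 rose (median -0.25), including the helicase RUVBL2 (-1.56 ± 0.34) and the motor EP400 (-1.23 ± 0.20) downwards and the chromodomain protein MORF4L1 (1.30 ± 0.24) upwards. Of 15 BAF partners 3 fell and 1 rose (median -0.21), with PBRM1 (-1.53 ± 0.31) and DPF2 (-1.34 ± 0.30) lower and ACTL6A (1.09 ± 0.28) higher. Of 21 Polycomb genes 0 fell and MTF2, an accessory subunit of PRC2, rose (1.28 ± 0.28), with a list median of 0.34. Of 19 other histone methyltransferases 3 fell (median -0.17), the arginine methyltransferases PRMT1 (-1.09 ± 0.25) and PRMT5 (-1.06 ± 0.20) and the H3K9 enzyme EHMT1 (-1.04 ± 0.29).

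The NuRD partner MTA1 (-1.22 ± 0.29), the corepressor scaffold SIN3A (-1.01 ± 0.25) and the maintenance DNA methyltransferase DNMT1 (-1.66 ± 0.31) were the ones that fell in their lists of 9, 18 and 9 tested genes, whose medians were 0.045, -0.12 and -0.045. Of 7 sirtuins, the mitochondrial SIRT4 rose (2.36 ± 0.52), with a list median of 0.37. In IgG IP against Total RNA 6 of the 161 fell (3.73%, against 1.62% of all genes) and 0 rose: BPTF (-1.75 ± 0.21), EP300 (-1.58 ± 0.26), TRRAP (-1.53 ± 0.32), EP400 (-1.19 ± 0.20), RSF1 (-1.09 ± 0.21) and KAT6A (-1.04 ± 0.21). In AGO2 IP against IgG IP 0 of the 161 were called.

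The members are long genes, with a median RefSeq span of 68.4 kb against 27.6 kb over the genes tested with a span. Of the 36 longest members 12 fell in AGO2 IP against Total RNA, and of the 35 shortest 3 did, with medians of -0.55 and -0.20. Over all genes tested 11.3% fell, and this share was not split by span, so the counts have no background of like span. Across the 71 members, which share their arrays, Spearman's rho between span and this difference was -0.16, and across 12811 genes it was -0.055. In IgG IP against Total RNA 5 of the longest and 1 of the shortest fell, with medians of -0.63 and -0.14. Over all genes tested, again not split by span, 1.62% fell. Span counts introns, which a mature message lacks, and the part of message length or level in the results was not tested. Spearman's rho between a member's mean level and its difference in AGO2 IP against Total RNA was -0.15, against -0.093 over all genes tested.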

How the data were processed

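The authors deposited log2 values for 12 Affymetrix arrays with 54675 probe sets, made with RMA per the submitters' processing notes. Not given in the sources used here are the RMA version, the settings and whether the 12 arrays were normalized together. Gene symbols came from the platform annotation: 41097 probe sets listed 1 symbol, 1801 several and 11777 were not listed. Probe sets with several symbols or none, and the 62 controls, were left out.

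The 12824 genes with a mean of at least 4.02 entered limma 3.58.1 in R 4.3.3 (data.table, version 1.17.8). The model had 6 group means and, in the version used for calls, a block for the replicate number, with 5 residual degrees of freedom (6 without it). Calls required an adjusted p (Benjamini-Hochberg) under 0.05. What a replicate number shares is not in the labels; the block was used because all 15 correlations between groups of same-numbered deviations exceeded 0.1 (median 0.601). Fits within 1 replicate had additive terms for fraction and construct, so the 2 constructs were the only repeats of a fraction. Alternatives were another scaling, no filter, the mean of all probe sets, and leaving out arrays. The scripts were tested on simulated data. Promoter and miRNA sequences are from RefSeq (GRCh38.p14), and 63 of 73 members matched a promoter. Figures used Python 3.11.15, pandas 2.3.3 and matplotlib 3.10.9.

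The genes, the lists of partners and the alternatives were chosen with earlier results of these data known, so they are no independent support for those results. The naming rule gave values in every array for the 12 members with the largest called change in AGO2 IP against Total RNA each way and up to 5 called members in other comparisons. Where none was called, it gave the 3 largest differences each way with the same sign in both replicates, and it gave up to 4 called genes per partner list. The values of CHD2, KDM5B, KDM6A and ARID5B in every array were added after their values were seen.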

Additional observations from a re-analysis of the deposited data

How the results depend on the processing

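Without the replicate block 0 members were called, whatever the scaling, filter, probe set rule or array left out. With it, 16 were called in AGO2 IP against Total RNA and 6 in IgG IP against Total RNA, and in no other comparison of all 12 arrays. Median centring or no filter with the block also gave 16 and 6. Cyclic loess with the block gave 14 and 3, of which 11 and 3 were among the calls above. In AGO2 IP against Total RNA these were 11 that fell, with 6.17% of all genes (against 11.3%), and 3 that rose, SETD3, SMARCA2 and SMARCB1, with 4.83% of all genes (against 4.71%). The mean of all probe sets gave 18 and 4 (14 and 3 of them among the calls above). The member median in AGO2 IP against Total RNA was -0.26 after cyclic loess and -0.27 with the mean of all probe sets, with or without the block, against -0.38.

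With the block, leaving out 1 array at a time called 0 to 24 members in AGO2 IP against Total RNA. The counts were 11 without the miR-21 and 13 without the control vector array of Total RNA in replicate 1, and 0 without either of these in replicate 2. They were 17 without an IgG IP array with miR-21 and 15 without one with the control vector, in either replicate. The member median was lowest, at -0.44, when AGO2 IP with miR-21 of replicate 1 was left out. It was highest, at -0.31, when AGO2 IP with the control vector of replicate 2 was left out. The highest count came from that same fit, in which a larger share of all genes was called as well. Each of these fits leaves 1 array in a group. The counts moved broadly with the share of all genes called, so they are not specific to the members. In IgG IP against Total RNA they ranged between 0 and 9, with 2 without either Total RNA array of replicate 1, 3 without either AGO2 IP miR-21 array and 9 without either AGO2 IP control vector array. Without the AGO2 IP control vector and IgG IP miR-21 arrays of replicate 2, 24, 0 and 7 members were called in AGO2 IP against Total RNA, IgG IP against Total RNA and AGO2 IP against IgG IP. These 2 arrays were picked for their likeness to the other antibody's arrays, and replicate 2 then sets AGO2 IP with miR-21 against IgG IP with the control vector, so the count of 7 supports nothing. Within replicate 1 the counts in the same order were 34, 8 and 23, and within replicate 2 they were 30, 27 and 0. The median of AGO2 IP against IgG IP was 0.0272 within replicate 1, against -0.0701.

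Without the block, leaving out 1 array moved the member median between -0.64 and -0.17 in AGO2 IP against Total RNA, -0.61 and -0.0122 in IgG IP against Total RNA, and -0.33 and 0.23 in AGO2 IP against IgG IP. For miR-21 against the control vector it moved between -0.41 and 0.66 in AGO2 IP and between -0.41 and 0.69 in IgG IP. In Total RNA it moved between -0.51 and 0.57, and for the interaction between -0.56 and 0.58. With the block, the median of 0.0058 in Total RNA moved between -0.026 and 0.0985 (0.0438 without the miR-21 array of replicate 1) and was -0.027 after cyclic loess and -0.0053 within replicate 2, and that of 0.0035 for the interaction moved between -0.11 and 0.092, so neither has a settled sign. In fits without the block, SMARCA2 in IgG IP against Total RNA changed sign when an IgG IP array of replicate 2 was left out. It was -0.12 without the control vector array and -0.11 without the miR-21 array, and its highest value in these fits was 1.18. Within replicate 1 alone SMARCA2 stood at -0.0713. The causes of the difference in level between the replicates, and of the other movements, were not tested.

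The number of arrays limits the precision. The construct could not be fitted within a replicate for each fraction, since 1 array per group leaves no residual degrees of freedom; over the 3 fractions 0 members were called within either replicate. Every result for AGO2 IP against IgG IP rests on replicates that differ, and scaling across replicate numbers is unknown.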
